A study of Homo sapiens with 8 samples.

Results

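The genes APOB, APOC3, APOA1 and APOE encode apolipoproteins, the proteins that package lipids for transport in the blood, and all 4 are expressed by liver cells. Peaks of trimethylated histone H3 lysine 36 (H3K36me3) were taken as belonging to a gene when they overlapped its hg19 span by at least 1 bp, which selected 4 peaks of the 58863 in both peak lists: 1 of 23488 in the SETD2 knockdown list and 3 of 35375 in the control list. APOB spans 42.6 kb on chromosome 2 from 21224301 to 21266945. The other 3 genes are short: APOC3 spans 3164 bp on chromosome 11 from 116700624 to 116703787, APOA1 1870 bp on chromosome 11 from 116706469 to 116708338, and APOE 3612 bp on chromosome 19 from 45409039 to 45412650.

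The peaks came from HepG2 cells, an established human liver cancer line. Cells with the genotype SETD2 knockdown stably expressed a SETD2 short hairpin RNA (shRNA), and cells with the genotype control expressed a non-specific one. Both were infected with lentivirus in polybrene and selected with puromycin, so the controls carry a hairpin vector too. Each condition had 2 replicates of H3K36me3 immunoprecipitate (an Abcam antibody) and 2 of input DNA, and the replicates were pooled before peak calling. There is therefore 1 peak list per condition, with no spread between replicates, no p-value between conditions and intervals that cover counting error only. Whether replicates were separate cultures, whether more than 1 hairpin was used and how far SETD2 fell are not given in the sources used here.

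H3K36me3 is a mark of transcribed gene bodies. In human cells SETD2 places it while bound to elongating RNA polymerase II, so the mark covers the body of an active gene, usually increases toward its 3′ end and is low at its promoter. APOB, the large structural protein of very low density and low density lipoproteins, is read from the higher to the lower coordinate, as is APOA1, the main protein of high density lipoprotein. APOC3, an inhibitor of lipoprotein lipase, and APOE, a ligand of receptors of the LDL receptor family, are read from the lower to the higher coordinate. RefSeq (GRCh38.p14) places APOC3 and APOA1 next to each other between APOA4 and SIK3, APOE between TOMM40 and APOC1, and APOB between LDAH and TDRD15, counting coding genes only.

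The bases upstream of APOE are shown because both APOE peaks stop short of them: the knockdown peak begins 258 bp and the control peak 171 bp downstream of the hg19 gene start. The 250 bases run up to the most upstream RefSeq start, on the plus strand of GRCh38.p14 at chr19:44905546-44905795. RefSeq gives APOE a length of 3598 bp, against 3612 bp for the hg19 span, so the starts on the 2 builds may be different bases. Capitals mark the motifs GGGCGG (a GC box, in either orientation) and TATAA, which were searched on both strands and do not overlap each other here.
APOE: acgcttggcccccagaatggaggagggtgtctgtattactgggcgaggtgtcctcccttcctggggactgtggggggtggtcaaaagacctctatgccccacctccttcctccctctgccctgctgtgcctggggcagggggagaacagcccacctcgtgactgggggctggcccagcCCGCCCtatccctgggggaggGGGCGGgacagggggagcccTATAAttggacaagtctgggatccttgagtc
The TATAA match begins 31 bases before the start, and the GC box matches begin 51 bases before it, and 72 bases before it in the reverse orientation. Of 35116 RefSeq promoter windows of the same length, 42.6% hold GGGCGG and 18.9% hold TATAA on either strand, so neither is rare. Of the 4 genes, APOE was the 1 matched in the promoter table used here.

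Of the 4 genes, 1 had a peak in the knockdown list (APOE) and 3 had a peak in the control list (APOB, APOA1 and APOE). APOC3 had none in either list. Taken as peaks, 1 of the 3 control peaks at these genes was overlapped by a knockdown peak, while over the whole control list the share was 39.5%, so a count over so few peaks cannot be set apart from the list. The 1 knockdown peak lay on a control peak, as did 83.0% of the knockdown list. All 3 control peaks passed a 5% limit on the false discovery rate (FDR) that the authors' caller gave, as did 50.5% of the control list. The single knockdown peak did not, and 5.3% of the knockdown list did.

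**Figure D1:**
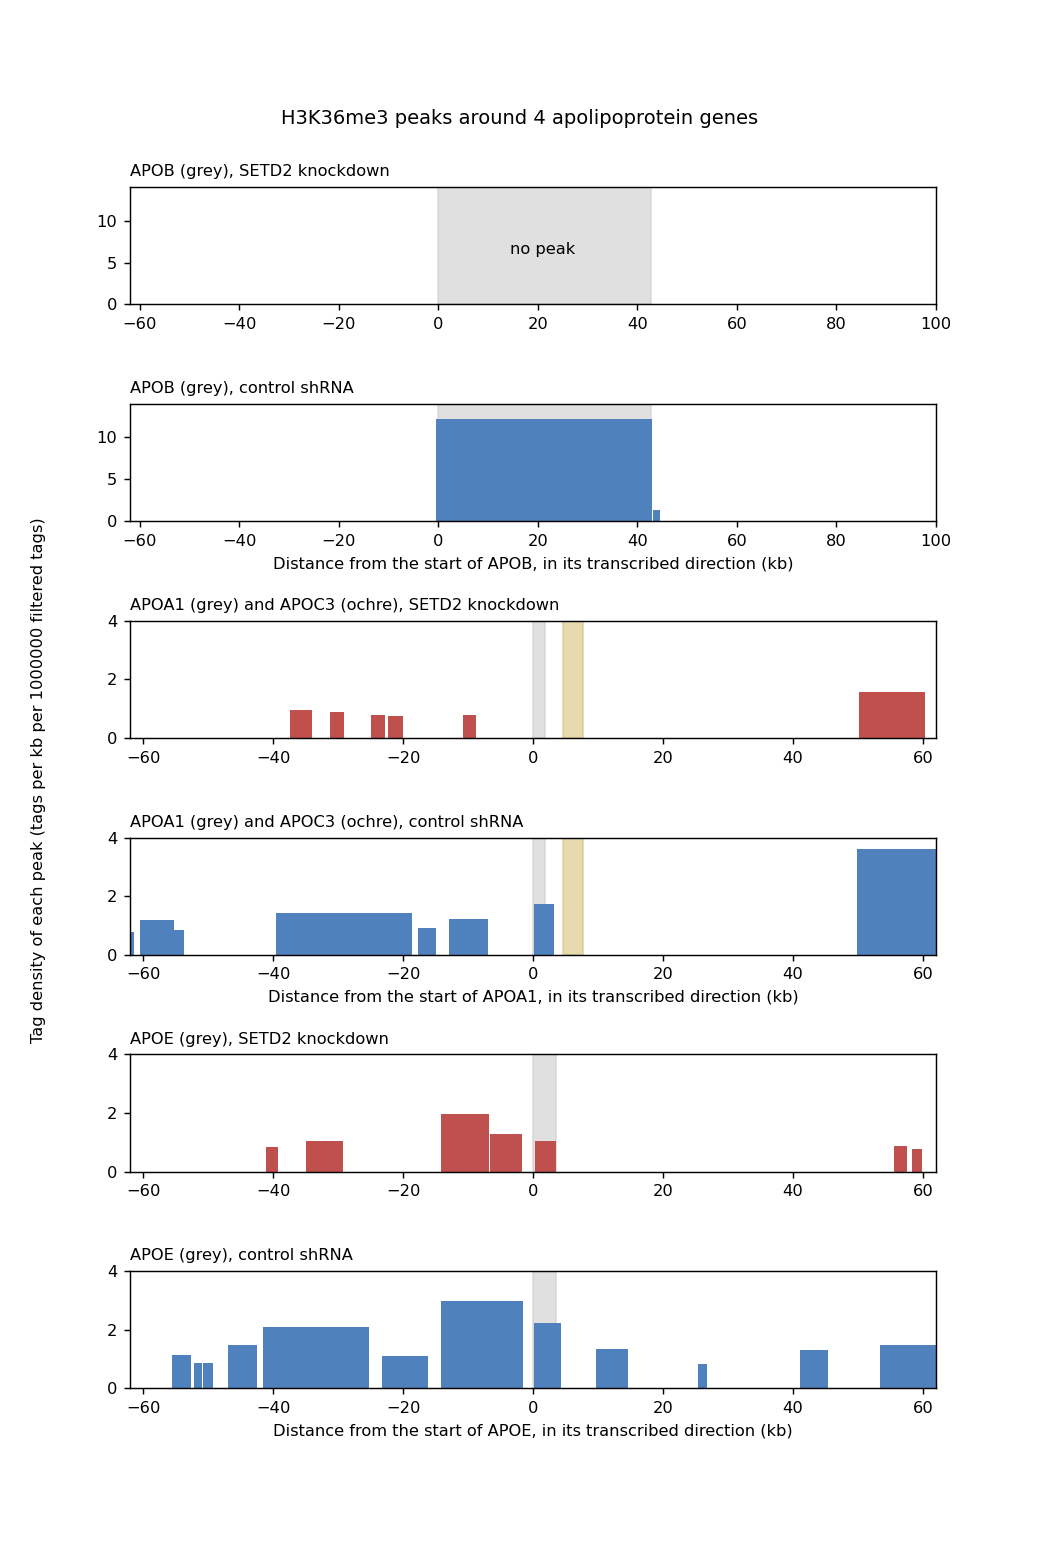
H3K36me3 peaks (bars) around the 4 genes, with distance from the gene start in kb on the x axis and the tag density of each peak in tags per kb per 1000000 filtered tags on the y axis, knockdown above control. At APOB the knockdown has no peak and the control peak fills the gene at a density of 12.2, APOC3 is bare in both lists, and APOE has a peak in both.

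At APOB the knockdown list held no peak, and the control list held a single peak over the whole gene. The control peak ran from 21223931 to 21267443 and covered the span from end to end, beginning 498 bp before the gene start and stopping 370 bp past the gene end. It was 43.5 kb wide, 1.02 times the span, and held 25496 tags, or 0.0532% of all filtered control tags (exact binomial 95% interval 0.0526 to 0.0539%).

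The tag density at APOB, in tags per kb per 1000000 filtered tags (the scale used for all densities here), was 12.2 in the control (Poisson 95% interval 12.1 to 12.4). This was 52.2 times the density of 0.235 outside all control peaks, and the median control peak had 1.101. Among the 35375 control peaks APOB ranked 2 by density and 3 by tags. It ranked 242 by width and 509 by fold enrichment over local input, for which the authors' caller gave 18.82. The gene thus ranked higher by raw density than by the caller's fold enrichment. Density is a mean over the whole peak, while the fold enrichment was taken as the caller gave it. The ranks are therefore not those of the same measure with and without input, and why they differ was not tested. HepG2 is known to carry extra copies of chromosome 2; raw density is not adjusted for copy number, and its part in the rank of APOB was not tested. The summit lay 15.7 kb into the gene, at 36.7% of its length from the start. It is a single position, and how the tags were spread along the peak is not given.

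**Figure D2:**
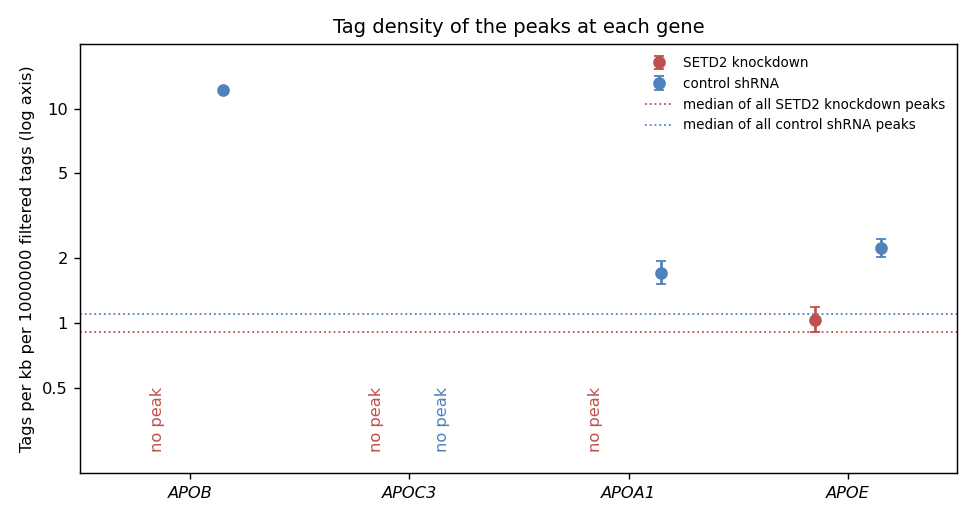
Tag density (log axis) of the peaks at each gene in SETD2 knockdown and control shRNA cells, with Poisson 95% intervals. Dotted lines mark the median of all peaks of each list, 0.907 in the knockdown and 1.101 in the control. The knockdown has a value for APOE only (1.04), and in the control APOB (12.2) lies far above APOE (2.24) and APOA1 (1.72).

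The surroundings of APOB were almost free of peaks. Within 100 kb of the gene the knockdown list had 0 peaks, and the control list had 1 besides the APOB peak. That control peak, 1432 bp wide with 90 tags (density 1.31, 1.06 to 1.61), was separated from the APOB peak by 152 bp on the 3′ side. It lies 522 bp outside the gene and was not counted as an APOB peak. On the upstream side the next knockdown peak was 2.73 Mb away and the next control peak 2.68 Mb away. On the downstream side the next knockdown peak was 228 kb away, which leaves a stretch of 2.997 Mb around APOB with no knockdown peak.

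The missing knockdown peak at APOB is the absence of a call, not a count of 0 tags: the tables give tags inside called peaks alone, so no knockdown density could be computed for APOB. Control peaks of similar width (within 1.2 times that of APOB) had a knockdown peak over them in 285 of 369 cases, or 77.2% (exact binomial 95% interval 72.6 to 81.4%). Those of similar fold enrichment had one in 840 of 955 cases, or 88.0% (85.72 to 89.96%). Control peaks of similar tag number had one in 1 of 7 cases, APOB among the 7.

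Across the control list the share of peaks with a knockdown peak went up and then down with the tags in the peak. The share was 9.31% below 100 tags, 33.0% from 100 to under 500, 78.2% from 500 to under 1000 and 90.2% from 1000 to under 3000. From there it went down to 84.8% below 5000 tags, 69.2% below 10000 and 48.4% (31 of 64 peaks) below 20000. At 20000 tags or more, the class of APOB, 1 of 8 control peaks was overlapped. The knockdown list had 0 peaks with 10000 tags or more and the control list had 72. The 3 densest control peaks, APOB among them, had 25496 to 38597 tags and no knockdown peak. The next 7 by density had 4687 to 6962 tags, and all of these 7 had a knockdown peak over them. The missing call at APOB is therefore shared with other control peaks of the most tags, and whether it follows from a loss of the mark or from the calling of peaks with many tags was not tested.

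**Figure D3:**
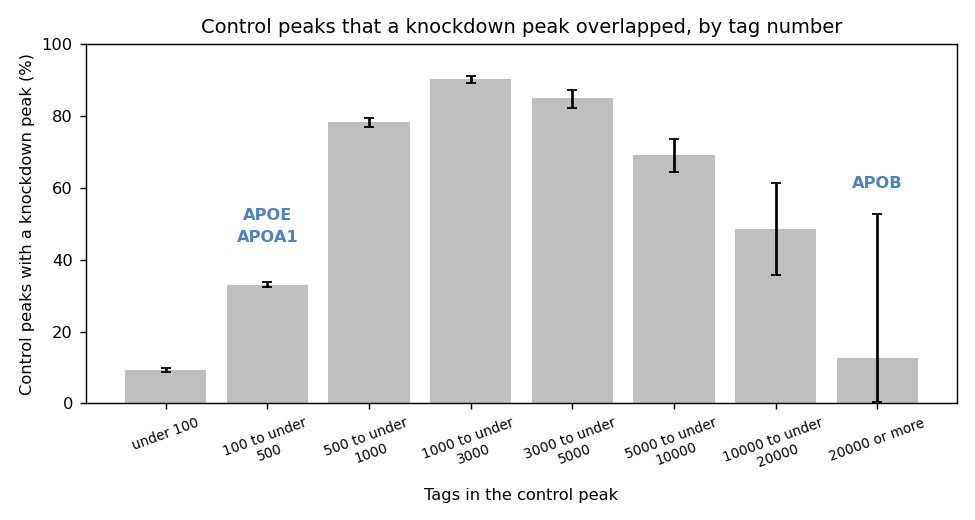
Percentage of control peaks overlapped by at least 1 bp of a knockdown peak (y axis) by the number of tags in the control peak (x axis), with exact binomial 95% intervals. The classes that hold APOA1, APOE and APOB are named; the share is highest at 1000 to under 3000 tags (90.2%) and lowest at both ends, where APOB lies at 20000 or more.

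Of the short genes, APOA1 had no knockdown peak, and its control peak ran from 116705116 to 116708188. That peak was 3073 bp wide and held 253 tags, a density of 1.72 (1.51 to 1.94). It began 150 bp after the gene start, covered 92.0% of the span and stopped 1353 bp past the gene end, so 56.0% of the peak lay inside the gene. Its summit fell 1.86 kb from the start, at 99.5% of the gene length, which places it at the 3′ end. RefSeq also lists an antisense RNA gene, APOA1-AS, over APOA1, and ChIP does not tell the strands apart.

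By density the APOA1 peak lay above 85.1% of control peaks, and by fold enrichment (6.39) above 70.5%, although by width it lay above only 42.3%. Control peaks with a density within 1.2 times that of APOA1 had a knockdown peak in 83.1% of cases (82.1 to 84.1%). Those of similar width had one in 25.3% (24.2 to 26.4%), and those of similar tag number in 38.5% (36.95 to 40.05%). For those of similar fold enrichment the share was 54.3% (53.2 to 55.4%). Whether the missing call at APOA1 is unusual thus depends on which property is matched.

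APOC3, on the same stretch of chromosome 11, had 0 peaks in either list. The nearest knockdown peaks were 13.4 kb downstream and 42.5 kb upstream of it. In the control the nearest on the downstream side was the APOA1 peak, 1328 bp from the APOC3 end, and the nearest on the upstream side was 42.2 kb away. Peaks of 2.5 to 4 kb, the size of APOC3, had densities no lower than 0.641 and tags no fewer than 109 in the knockdown list. In the control list the lowest density was 0.691 and the fewest tags 84. No peak of that size was called below these levels, so a missing peak at APOC3 does not show that the mark was absent.

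Around the APOA1 and APOC3 pair, the knockdown list stood to the control list about as it did over the whole genome. Within 100 kb of APOA1 the knockdown had 8 peaks covering 42.9 kb, and the control had 13 peaks covering 88.1 kb, which is 21.2% and 43.7% of the window. The knockdown thus had 61.5% of the control's peak number and 48.6% of its covered length there, against 66.4% and 48.4% over the whole lists. Densities of the peaks outside the gene ran from 0.761 to 1.58 in the knockdown and from 0.766 to 3.63 in the control. The strongest in both lists was the peak downstream of APOA1. It had 1077 tags over 10.1 kb (1.58, 1.49 to 1.68) in the knockdown, and 2122 tags over 12.2 kb (3.63, 3.47 to 3.78) in the control. The knockdown peak nearest to APOA1 on its upstream side, 8.81 kb away, had 102 tags and a density of 0.792 (0.646 to 0.961).

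APOE was the 1 gene of the 4 with a peak in both lists. The knockdown peak ran from 45409297 to 45412557, was 3261 bp wide and held 227 tags, a density of 1.04 (0.907 to 1.18). The control peak ran from 45409210 to 45413284, was 4075 bp wide and held 437 tags, a density of 2.24 (2.03 to 2.46). By density the control peak lay above 92.8% of its list and by width above 54.5%. The knockdown held fewer tags although its library was deeper, and the 2 density intervals did not overlap. The share of the gene covered was 90.3% in the knockdown and 95.3% in the control.

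The APOE peaks of both lists were placed much alike along the gene. The summits were 12 bp apart, 2.065 kb from the gene start in the knockdown and 2.077 kb in the control, or 57.2% and 57.5% of the gene length. The first edges were 87 bp apart. The last edges were 727 bp apart: the knockdown peak stopped 93 bp before the gene end and the control peak 634 bp past it. The knockdown peak lay entirely inside the control peak and covered 80.02% of it, and most of the difference in width was at the 3′ side.

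The log2 ratio of knockdown over control density at APOE was -1.11 (exact conditional binomial 95% interval -1.35 to -0.87), which is 46.4% of the control density in the knockdown. That interval compares 2 pooled libraries and not the conditions. Each density is scaled to the filtered tags of its own library, so 46.4% is a relative value and not the amount of the mark that remained. Of the 7543 pairs of peaks that overlapped each other by at least 50%, 81.1% also had an interval wholly below 0, so the direction is that of most pairs. Among these pairs the size lay toward the lower end. The median over all pairs was -0.59 (quartiles -0.81 and -0.38), and 5.59% of pairs had a lower ratio than APOE. A pair needs a call in both lists, and 39.5% of control peaks had any knockdown peak over them. Control peaks without one, such as those at APOB and APOA1, have no ratio and are outside this ranking. Among the 589 pairs with a control fold enrichment of 8 to under 9, close to the 8.45 of APOE, the median was -0.67 and 2.21% had a lower ratio. With the density outside peaks (0.337 in the knockdown, 0.235 in the control) taken off, the ratio at APOE was -1.52. The medians over pairs were computed without taking it off, so they cannot be set beside this value.

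Within its own list the knockdown peak at APOE was weak relative to input, but not by density or tags. By density it lay above 72.0% of knockdown peaks, and by tags above 54.7%. Peak scores, which the authors' caller derives from the log10 of a p-value multiplied by minus 10, began at 50 in both lists. The score was 65.79 at APOE in the knockdown list, where 86.7% of peaks scored higher, and 1406.67 in the control list, where 10.9% did. The fold enrichment was 2.56 in the knockdown list, below 96.3% of its peaks, and 8.45 in the control list, above 83.1% of its peaks. The FDR was 86.98% in the knockdown and 0% in the control. The knockdown peak at APOE is lost under an FDR limit of 5%, a score of 100 or a fold enrichment of 5. None of the 4 genes then has a knockdown peak. Most of the knockdown list also fails the FDR and fold limits: 5.3% of it passed the FDR limit, and its median fold enrichment was 3.71. The share of the list that passed the score limit was not computed.

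**Figure D4:**
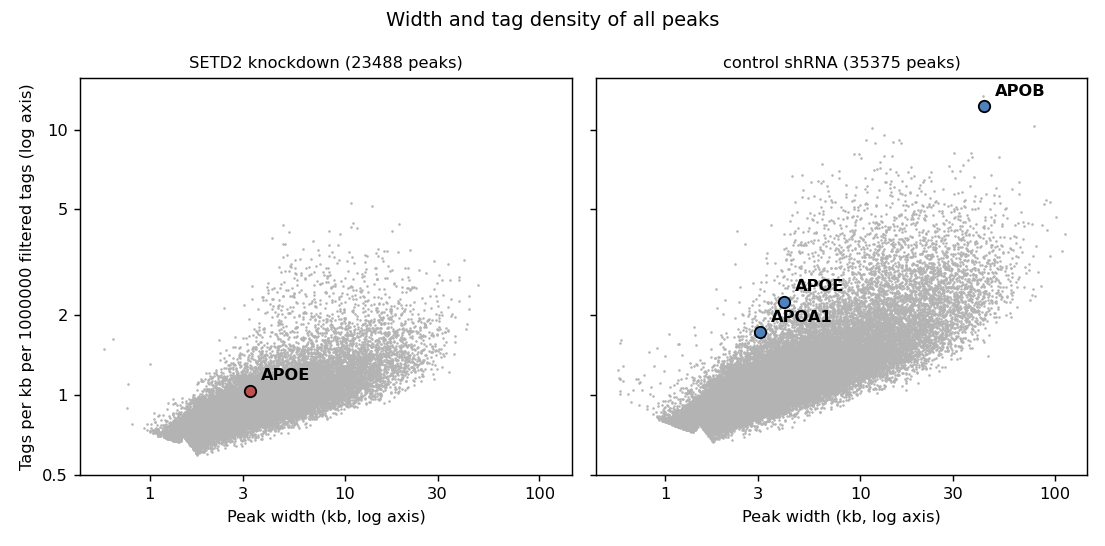
Width (kb, log axis) and tag density (tags per kb per 1000000 filtered tags, log axis) of all 23488 knockdown peaks and all 35375 control peaks (grey), with the peaks at the apolipoprotein genes named. APOE lies within the bulk of the knockdown peaks at 1.04, and APOB lies at the upper edge of the control peaks at 12.2.

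The peak next to APOE on its upstream side also had a lower density in the knockdown. In the knockdown 2 peaks lay over it, together 12.3 kb with 1404 tags, a density of 1.70, and the better of them had an FDR of 0%. In the control it was 12.5 kb wide with 1795 tags, a density of 2.99 (2.86 to 3.14). The log2 ratio there was -0.82 (-0.92 to -0.71), against -1.11 (-1.35 to -0.87) at APOE. The difference between these ratios was not tested. On the downstream side the nearest knockdown peak was 51.9 kb from APOE, against 6.02 kb for the nearest control peak. Within 100 kb of APOE the knockdown had 11 peaks covering 39.7 kb and the control 16 peaks covering 102 kb. That is 68.75% of the peak number and 38.8% of the covered length, next to the 66.4% and 48.4% of the whole lists. APOE, unlike APOB, lay among many other peaks.

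Set against the short genes, APOB differed in the control list by density as well as by length. Its control peak was 10.7 times as wide as that of APOE and 14.2 times as wide as that of APOA1. Its density was 5.46 times that of APOE (4.97 to 6.02, counting error only) and 7.12 times that of APOA1 (6.29 to 8.09). Wide control peaks were also denser across the list. The median density was 2.52 for control peaks of 30 to 60 kb and 1.04 for those of 2.5 to 4 kb. The part of width in the density gaps was not tested. In fold enrichment over local input, a value of the authors' caller, APOB stood at 18.82, APOE at 8.45 and APOA1 at 6.39, so the gaps were smaller on that scale. Density is a mean over the whole peak and the fold enrichment was not recomputed, so these are unlike measures. Why the gaps differ between them was not tested. APOE exceeded APOA1 in density by 1.30 times (1.11 to 1.53). All 3 control peaks reached past the gene end, by 370 bp at APOB, 634 bp at APOE and 1353 bp at APOA1. At the gene start APOB was covered, while the peaks of APOE and APOA1 began 171 and 150 bp inside. In the knockdown the contrast could not be made in density, because APOE alone had a peak.

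The 3 chromosomes differed in how often control peaks had a knockdown peak. The share was 27.4% (603 of 2203 peaks) on chromosome 2, which holds APOB, 36.3% (640 of 1761) on chromosome 11, which holds APOA1 and APOC3, and 47.5% (735 of 1548) on chromosome 19, which holds APOE. The order of the chromosomes is given beside the genes as a description, and its part in the calls at the genes was not tested.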

How the data were processed

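The submitters' processing notes name FastQC 0.11.5, Bowtie 1.1.2 and the genome build hg19. Per the file headers, MACS 1.4.2 called peaks on merged replicates against merged input (p-value limit 1e-05, 1 duplicate tag per position, fragment size 294 bp, local background over 1000 and 10000 bp), from 67053273 filtered immunoprecipitated tags in the knockdown and 47880817 in the control. The deposited tag counts are whole, unnormalized numbers per peak. The deposited score is derived from the p-value (its log10, multiplied by minus 10), the deposited fold enrichment is a ratio over local input, and the deposited FDR is in percent. The authors' shorter lists held the 1244 knockdown and 17856 control peaks with an FDR of 5% or less.

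Gene spans on hg19 were given with the gene list, and the strands of APOB, APOC3 and APOA1 are textbook knowledge. Planned values for other lipoprotein genes were not computed, since hg19 coordinates for them were not used here. Density is tags per kb per 1000000 filtered tags, with exact Poisson intervals; ratios have exact conditional binomial intervals, and shares exact Clopper-Pearson ones, all at 95%. Density outside peaks used the caller's effective genome of 2.7 Gb. The members, lists and alternatives were chosen with earlier results of these data known. All peaks at the 4 genes, and the nearest peak on each side, are named; the 2 APOE promoter motifs and the classes of similar peaks were chosen after the values were seen. Python 3.11.15, pandas 2.3.3, NumPy 2.4.6, SciPy 1.17.1 and matplotlib 3.10.9 were used. The overlap, pairing and density ratio steps were tested on simulated data, and the other steps were not.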

Additional observations from a re-analysis of the deposited data

How the results depend on the processing

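Limits on the FDR (5%), the score (100) or the fold enrichment (5) were set in both lists. APOE then had 0 knockdown peaks and 0% of its span covered in the knockdown, so its density ratio could not be computed there. Most of the knockdown list also fails the FDR and fold limits (5.3% passed the FDR limit, and the median fold enrichment was 3.71). The control peaks at APOB, APOA1 and APOE passed all 3 limits. Widening each span by 5 kb gave 2 knockdown and 2 control peaks at APOE, 2 control peaks at APOB and 1 control peak at APOC3, because neighbouring peaks entered. Merging peaks within 3000 bp moved the covered share of APOE to 97.4% in the knockdown and 100% in the control. The log2 density ratio of APOE was -1.52 with the density outside peaks taken off, and -1.09 with all tags as depth. Over the gene span it was -1.14 and over the union of both peaks -1.32; these were not recounted but follow from spreading each peak's tags evenly and filling uncalled bases at the density outside peaks. Over the bases that both lists called, a setting chosen after seeing the data, even spreading returns the reported ratio by construction. None of these 3 values bears on stability. No paired analysis was possible because the authors merged the replicates of a group into 1 alignment, which also left no replicate to take out in turn. Depth limits the short genes most: 227 knockdown and 437 control tags at APOE, and 253 control tags at APOA1. Regions without a called peak have no value in these tables.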
